A study of Homo sapiens with 5 samples.

Results

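The simple epithelial keratins KRT7, KRT8, KRT18 and KRT19 were followed across 5 microarrays of the human embryonic stem cell line H1. These 4 genes were chosen with earlier results of these data known. Their probes were taken by gene symbol alone, as every probe that the platform annotation names for one of them. This gave 5 probes out of 30105 named probes on the array, and 4 genes out of 20041. KRT7, KRT8 and KRT19 had 1 probe each and KRT18 had 2.

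Keratins are the intermediate filament proteins of epithelial cells, and each filament is built from pairs of a type I and a type II chain. KRT8 and KRT7 are type II chains, and KRT18 and KRT19 are type I chains. KRT8 and KRT18 are the keratins of simple, single-layered epithelia and the first to appear in mammalian embryos, while KRT7 and KRT19 mark ductal and extraembryonic epithelia such as trophoblast and amnion. Human embryonic stem cells grow as an epithelial sheet, and BMP4, the factor used here to start mesoderm differentiation, also drives extraembryonic fates in such cultures.

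All cells were H1, grown on Matrigel in E8, a defined medium. At day 2 there were 4 arrays: plain E8, pyruvate at 16 mM, BMP4, and the mixture of BMP4 with pyruvate at 16 mM. The fifth array held the mixture at day 6. The labels state neither the BMP4 dose nor which cultures were sparse or dense when treated. With 1 array per condition, replicate error is unknown and differences are given without p-values. The day 6 array has no day 6 control, so duration and treatment cannot be told apart when it is set against E8. Illumina BeadChips were used, on which a probe counts as detected at a detection p under 0.01, and levels are log2 of the signal after background correction and quantile normalization. A gene was counted as higher or lower from 2-fold on, a log2 difference of at least 1 in size, provided that the brighter of the 2 arrays detected it. Where the dimmer array did not detect it, the fold is a lower bound, written "at least". Levels of different probes are not on one scale, so each gene is compared only with itself.

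The arrays detected 35.2% to 40.1% of 47296 probes. Markers of pluripotency fitted the label of the line, with 9 of 9 measured markers, POU5F1, NANOG and SOX2 among them, detected on each of the 4 arrays of day 2. At day 6 only 5 of the 9 were detected, and NANOG, SOX2, PRDM14 and UTF1 were not.

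KRT8 lies on chromosome 12 at bases 52897191 to 52949860 of GRCh38.p14, next to KRT18 at 52948855 to 52952906, and the 2 annotated spans overlap. KRT7 lies on the same chromosome at 52233243 to 52255853, and KRT19 on chromosome 17 at 41523617 to 41528308. KRT8 was 1 of the 2 keratins with measured differences, so the 250 bases before its start in the RefSeq table of GRCh38.p14 are shown, on the minus strand at chr12:52926470-52926719. The window lies 23141 bases inside the far end of the annotated gene, and the array does not show which start the cells used. Capitals mark the match to an ETS core.

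KRT8 upstream window: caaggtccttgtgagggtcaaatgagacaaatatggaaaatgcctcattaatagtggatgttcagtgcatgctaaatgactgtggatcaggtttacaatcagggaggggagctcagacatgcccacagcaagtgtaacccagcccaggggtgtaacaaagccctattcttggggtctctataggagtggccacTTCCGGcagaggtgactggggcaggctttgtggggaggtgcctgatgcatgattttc

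On both strands of this window 7 short motifs were searched. The ETS core CCGGAA was found once, on the reverse strand, with its first base 57 bases before the start, and it occurs in 14.5% of 35116 such windows in the genome. The TATA box TATAAA (10.7% of windows), the GATA motif AGATAA (9.17%), the AP-1 motif TGANTCA (6.57%), the AP-2 motif GCCNNNGGC (19.8%), the GC box GGGCGG (42.6%) and the palindromic SMAD element GTCTAGAC (0.182%) had no match. A match is a run of letters and not a shown binding site.

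Of the type II chains, KRT8 was bright on all 5 arrays. Its raw intensity was 3499 in E8, 2977 with pyruvate, 4210 with BMP4, 8382 with BMP4 and pyruvate at day 2 and 6807 at day 6, against a brightest probe of 36418 to 42514 on these arrays. After normalization its log2 level was 11.52, 11.55, 12.29, 12.95 and 12.69 in the same order. The 3 arrays with BMP4 were thus all above the 2 without it, and the lowest and highest arrays were 2.70-fold apart. In bulk RNA, fewer cells of a type and less RNA per cell cannot be told apart. In order of level, E8 and pyruvate were 0.03 apart, BMP4 stood 0.74 above pyruvate, day 6 stood 0.40 above BMP4, and BMP4 with pyruvate at day 2 stood 0.26 above day 6. In place of replicates, the yardstick was how far 2 probes for the same gene disagreed about a log2 difference, as an SD over genes with 2 detected probes. This covers probe error and not the spread between cultures. Of these 4 steps the step of 0.74 exceeded that SD (0.29 for those 2 arrays), and the others did not (SD of 0.32, 0.41 and 0.63).

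KRT7, the other type II chain, was detected on 0 of 5 arrays. Its probe read 170 in E8, 123 with pyruvate, 152 with BMP4, 176 with BMP4 and pyruvate at day 2 and 157 at day 6. The lowest detection p was 0.0221, on the array of BMP4 and pyruvate at day 2, so at a threshold of 0.05 KRT7 would count as detected on that array alone. These values lie in the background of the arrays, so no fold is given and no order is read from them.

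Of the type I chains, KRT19 was detected on all 5 arrays and had the wider range. Its raw intensity was 1334 in E8, 794 with pyruvate, 1559 with BMP4, 2576 with BMP4 and pyruvate at day 2 and 5208 at day 6. Its normalized log2 level was 10.04, 9.53, 10.82, 11.13 and 12.30, a range of 6.83-fold. Pyruvate alone was lowest and day 6 highest, and again the 3 arrays with BMP4 lay above both without it. The steps in order of level were 0.51 from pyruvate to E8, 0.79 from E8 to BMP4, 0.31 from BMP4 to BMP4 with pyruvate at day 2 and 1.17 from there to day 6. The step of 0.31 was smaller than the SD between 2 probes of a gene (0.52), and the other 3 were larger (SD of 0.32, 0.31 and 0.63).

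KRT18, the usual partner of KRT8 in simple epithelia, was not detected by either probe on any array. One probe, ILMN_1730848, read 142 in E8, 163 with pyruvate, 151 with BMP4, 166 with BMP4 and pyruvate at day 2 and 148 at day 6, and its lowest detection p, 0.0325, was on the pyruvate array. The other probe, ILMN_1803408, read between 137 and 167, with a lowest detection p of 0.0792. The probes are annotated to different transcript records of the gene and neither showed a signal above background, so KRT18 could not be measured here. An undetected probe sets no limit on the transcript's real level. The 17183 probes without a gene name on this platform were not used.

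**Figure D1:**
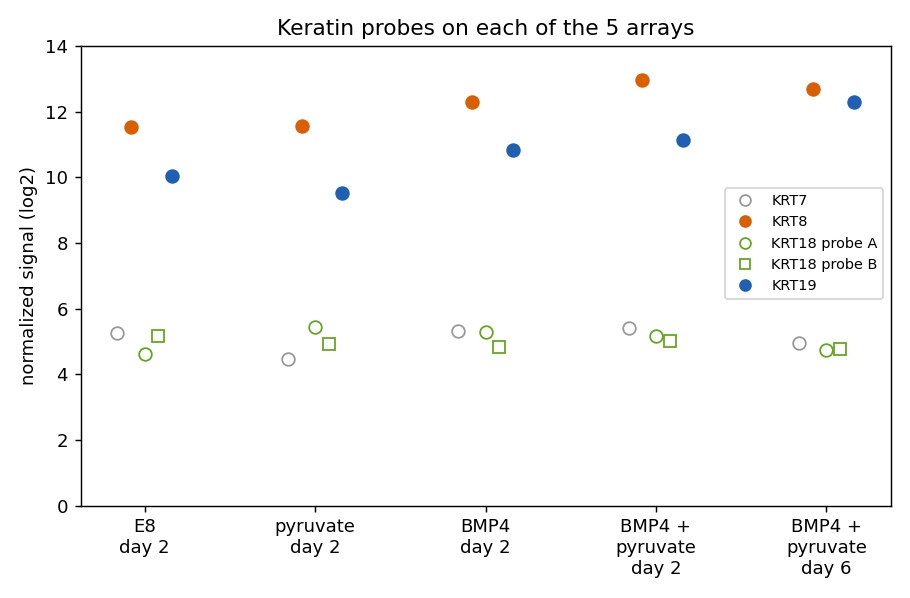
Normalized signal (log2) of the 5 keratin probes on each of the 5 arrays, with filled symbols for detected probes and open symbols for undetected ones; KRT18 probes A and B are ILMN_1730848 and ILMN_1803408. KRT8 and KRT19 were detected throughout and stood higher on the 3 arrays with BMP4, while KRT7 and both KRT18 probes stayed in the background.

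With pyruvate added to E8, KRT8 was level and KRT19 slightly lower. KRT8 differed by 0.03 in log2, which is 1.02-fold, and KRT19 was 1.42-fold lower, a difference of -0.51. Neither reached 2-fold, where 1.04% of 11504 detected genes were higher and 1.32% lower. The difference of KRT19 ranked 1063rd from the lowest and exceeded the SD between 2 probes of a gene, 0.32.

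BMP4 added to E8 went with higher KRT8 and KRT19, by nearly the same amount. KRT8 was 1.71-fold higher (log2 difference 0.77) and KRT19 1.73-fold higher (0.79), ranks 493 and 481 from the top of 11582 genes. Both fell short of 2-fold, where 2.68% of genes were higher and 2.51% lower. At a threshold of 1.5-fold both were higher, as were 6.41% of all genes.

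The BMP4 difference in the presence of pyruvate rests on the other pair of day 2 arrays and had the larger values, with the excess over the first pair untested. KRT8 was 2.64-fold higher with BMP4 than without it (log2 difference 1.40, rank 320 of 11309), and KRT19 was 3.03-fold higher (1.60, rank 232). Both passed 2-fold, where 6.45% of all genes were higher. Across the pairs without and with pyruvate, which share no array, both keratins were at least 1.5-fold higher in each, as were 283 of the 9755 genes detected on all 4 arrays, or 2.9%.

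Adding pyruvate to BMP4 left both keratins short of 2-fold, where 3.71% of 11230 genes were higher and 3.05% lower. KRT8 was 1.58-fold higher (log2 difference 0.66, rank 1143) and KRT19 1.24-fold higher (0.31, rank 2860). With arrays scaled to their 75th percentile in place of quantiles, these log2 differences were 0.36 and 0.11, or 0.50 and 0.25 relative to the median of all genes, which scaling set at -0.14.

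The pyruvate difference can be set side by side in the 2 backgrounds. In E8 the log2 difference was 0.03 for KRT8 and -0.51 for KRT19, and in BMP4 it was 0.66 and 0.31. The departure from additivity was 0.63 for KRT8 and 0.81 for KRT19 in log2, above 89.2% and 93.7% of the 9755 genes, whose median was -0.07. A departure of 1 or more in size was seen in 7.64% of genes, and neither keratin reached it. Scaling to the 75th percentile lowered the departure to 0.21 for KRT8 and 0.56 for KRT19. It also set the median of all genes at 0.06 for pyruvate in E8 and -0.14 for pyruvate in BMP4, so part of this drop was shared by genes at large. No replicate error is available for either keratin.

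Between day 2 and day 6 of BMP4 with pyruvate KRT19 was higher and KRT8 differed little, with no replicate error for either. KRT19 was 2.25-fold higher at day 6 (log2 difference 1.17), while KRT8 differed by -0.26, less than the SD between 2 probes of a gene (0.63), and by -0.01 after scaling to the 75th percentile. KRT19 passed 2-fold and KRT8 did not, where 13.5% of 11661 genes were higher and 13% lower, so a difference of this size was common between these arrays. KRT19 ranked 1232nd from the top. The difference in KRT19 exceeded that in KRT8 by 1.43 in log2. The same gap was 0.01 for BMP4 in E8, 0.20 for BMP4 in pyruvate, -0.54 for pyruvate in E8 and -0.35 for pyruvate in BMP4.

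Against E8 at day 2, the day 6 array had KRT8 2.25-fold higher (log2 difference 1.17, rank 1223 of 12018) and KRT19 4.81-fold higher (2.27, rank 443). Both passed 2-fold, where 12.4% of genes were higher and 12.3% lower. KRT19 differed more than KRT8, by 1.10 in log2.

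**Figure D2:**
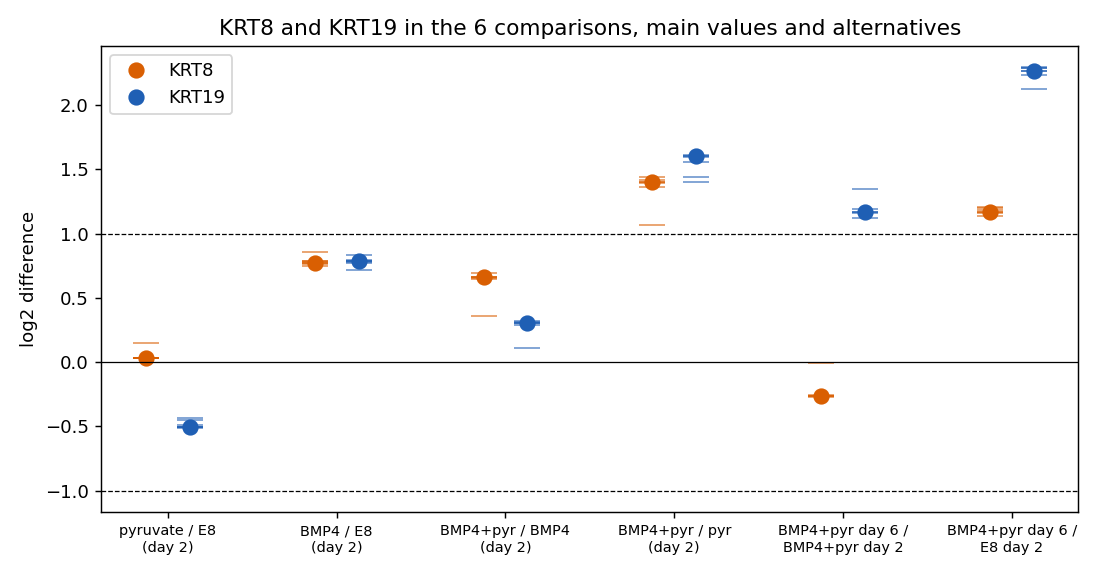
Log2 difference of KRT8 and KRT19 in the 6 comparisons, with the main value as a dot, each alternative processing as a short bar and 2-fold as dashed lines. KRT8 passed 2-fold in 2 comparisons and KRT19 in 3, and no alternative moved either across the line.

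Among the other keratins, 45 genes had a probe and 42 were undetected on every array. KRT10, a type I keratin best known from the upper layers of the skin, was detected on all 5, between 9.91 and 10.52 in log2, and reached 2-fold in 0 of the 6 comparisons. KRT16 and KRT80 were detected on the array of BMP4 and pyruvate at day 2 only. KRT16, a keratin of stressed epidermis, read 271 there and 138 to 161 elsewhere, and was at least 1.98-fold higher than with BMP4 alone. KRT80 read 193 there, too near background for a fold. KRT5, KRT14 and KRT15, keratins of stratified epithelia, were undetected on all 5 arrays.

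Desmosomes and plakins anchor keratin filaments to cell junctions. Of 10 detected genes for them, 0 were higher and 0 lower with BMP4 than in E8, where 2.68% and 2.51% of all genes were, and the median difference was 0.01 against -0.01 for all genes. PLEC, which links intermediate filaments to other parts of the cytoskeleton, was 1.65-fold higher, and with BMP4 in pyruvate it was 2.36-fold higher. It was the 1 of 10 that passed there, near the 6.45% of all genes higher, with 5.76% lower. A further probe of DSC2, detected on both arrays, differed by 1.49 in that comparison, where the probe used fell short of 2-fold. At day 6 against day 2, 2 of 10 were higher, DSC3 (3.32-fold) and PERP (2.01-fold), and 2 were lower, DST (at least 3.64-fold, its probe being undetected at day 6) and PPL (3.28-fold), near the 13.5% and 13% of all genes. The median was -0.04, and scaling to the 75th percentile gave 3 higher, 2 lower and a median of 0.19. Further probes of DST differed by -1.65 to -0.59, the last from the one probe detected on both arrays, and those of DSP, the plakin that ties keratins to desmosomes, disagreed in sign (0.19, 0.87 and -1.27). A further probe of DSG2 differed by -1.63 and one of DSC2 by -0.99, both detected on both arrays. One of DSC3, undetected at day 2, differed by 1.21. By the probe used, DSG2 did not reach 2-fold and DSC2 rose from 10.26 to 10.79, so these counts depend on the probe.

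Many genes of epithelial junctions and surfaces were lower at day 6, where KRT19 was highest. With BMP4 in E8, 0 of 17 were higher or lower, with a median of 0.02, and CDH1, the epithelial cadherin, differed by 0.42. Between day 2 and day 6, 0 of 16 were higher and 10 lower, beside 13.5% and 13% of all genes, at a median of -1.38 against -0.01 for all genes. Of the 10, ST14 and MARVELD2 were counted through day 2 alone, being undetected at day 6. CLDN7, a tight junction claudin, was 9.06-fold lower, CLDN6 6.90-fold and AP1M2, which sorts proteins to the basolateral membrane, 5.74-fold. CDH1 was 2.56-fold lower, while EPCAM, an epithelial adhesion molecule, differed by 0.03, with 2 further probes at -0.16 and -0.79.

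Genes listed as epithelial transcription and splicing factors went in both directions. With BMP4 in E8, 4 of 12 factors detected on either array were higher and 1 lower, beside 2.68% and 2.51% of all genes. The 4 were undetected in E8, so they entered the count only through the array where they were high. TFAP2A, a factor of amnion, trophoblast and surface ectoderm, was at least 58.7-fold higher, MSX2 at least 12.4-fold, GRHL3 at least 4.38-fold and GATA2 at least 2.27-fold. KLF4 was 2.02-fold lower by the probe used, which scaling to the 75th percentile ended, and differed by -0.26 by a further probe. At day 6 against day 2, 3 of 15 were higher and 8 lower, beside 13.5% and 13% of all genes, so the share that was higher lay near that of all genes. Among them were CDX2, 5.13-fold higher, GATA3, at least 2.64-fold higher, and TFAP2C 5.76-fold, ESRP1 4.34-fold and OVOL2 4.27-fold lower. Of the genes counted as higher, GATA3 and KLF5 were undetected at day 2 and entered only through day 6. Of those counted as lower, KLF4, GRHL1 and OVOL1 were undetected at day 6 and entered only through day 2. TFAP2A itself differed by 0.08 between those days.

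Several genes of the epithelial to mesenchymal transition were higher at day 6 while both keratins stayed bright. Of 6 detected at either time, 5 were higher at day 6 than at day 2 and 0 lower, but SNAI1, SNAI2 and ZEB2 were undetected at day 2 and entered only through day 6. ZEB1, the remaining member, was detected at neither time. SNAI2 was at least 29.6-fold higher, ZEB2 at least 10.6-fold and CDH2, the neural cadherin, 5.58-fold. VIM, the intermediate filament protein of mesenchymal cells, was 4.78-fold higher, and its log2 level was 11.15 in E8, 10.98 with pyruvate, 11.08 with BMP4, 12.12 with BMP4 and pyruvate at day 2 and 14.37 at day 6. The highest VIM and the highest KRT19 were therefore on the same array, where CDH1 was at its lowest (11.73 against 12.18 to 13.09 elsewhere). In bulk RNA, cells that hold both filaments and a mixture of cells that hold one each cannot be told apart.

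Pyruvate added to E8 took 0 genes of these lists past 2-fold in either direction, among 17 detected junction genes, 10 of desmosomes and plakins, 8 epithelial factors and 6 keratin-binding proteins, which is near the 1.04% higher and 1.32% lower of all genes. Added to BMP4, it went with 2 junction genes higher, ST14, a membrane protease (2.22-fold), and CLDN6 (2.03-fold), and 1 lower, CLDN3 (3.20-fold), of 16, beside 3.71% and 3.05% of all genes, but with 1 higher and 2 lower after scaling to the 75th percentile. Against E8, the day 6 array had 0 of 17 junction genes higher and 9 lower (median -1.08), beside 12.4% and 12.3% of all genes. CLDN4, MARVELD2 and ST14 were undetected on the day 6 array and entered the 17 only through E8. Of these, MARVELD2 (7.13 in E8) was among the 9 lower. Of the 10 genes of desmosomes and plakins, 3 were higher there, with DSC3 at 4.18-fold and PKP2, a plakophilin, at 3.46-fold, and 2 lower (median 0.12). A further probe of DSC3 differed by 0.39, short of 2-fold. Further probes of DSG2 (-1.18) and DSP (-1.82) were past 2-fold lower where the probes used were not, and another of DSP differed by 0.65.

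**Figure D3:**
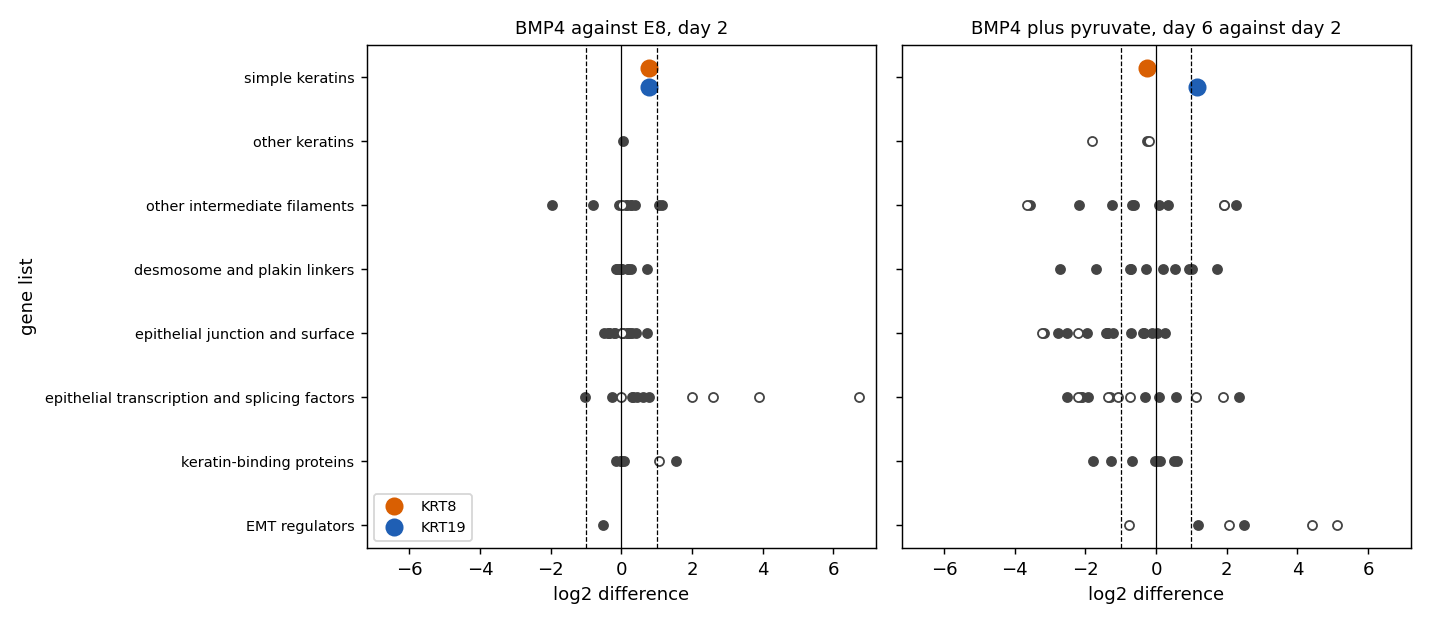
Log2 differences of KRT8 and KRT19 (coloured) and of the detected members of 7 gene lists (dots; open where the gene was undetected on one of the 2 arrays) for BMP4 against E8 and for day 6 against day 2 of BMP4 with pyruvate; dashed lines mark 2-fold. At day 6, 10 of 16 epithelial junction genes lay at least 2-fold lower, with KRT8 at -0.26 and KRT19 at 1.17. Of 6 genes of the epithelial to mesenchymal transition (the list EMT regulators, which includes the cadherin CDH2), 5 lay at least 2-fold higher. Among these, SNAI1, SNAI2 and ZEB2 were undetected at day 2 and entered only through day 6.

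Of 7 detected genes for proteins known to bind keratins, 2 were higher and 0 lower with BMP4 in E8, beside 2.68% and 2.51% of all genes. They were SFN, the 14-3-3 protein of epithelia, at 2.91-fold, and TCHP, or trichoplein, at least 1.59-fold. TCHP was undetected in E8 and entered the count only through the BMP4 array, with a bound short of 2-fold. SFN had log2 levels of 6.05 in E8, 6.61 with pyruvate, 7.59 with BMP4, 8.81 with BMP4 and pyruvate at day 2 and 7.02 at day 6. Its highest array was the same as that of KRT8. At day 6 against day 2, 0 of 8 were higher and 2 lower, beside 13.5% and 13% of all genes, with 6 short of 2-fold. SFN was 3.46-fold lower and DNAJB6, a chaperone that binds KRT18, 2.41-fold lower (-0.94 by a further probe).

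Markers of other cell types differed between the arrays, and more were detected at day 6 for some types and fewer for others. Sums over markers add probes that are not on one scale, so the brightest gene of the higher sums is named. Of 5 amnion markers 2 were detected in E8 and with pyruvate, 3 on both BMP4 arrays of day 2 and 5 at day 6, and their summed normalized signal was 401 to 430 without BMP4, 2864 to 3312 with it at day 2 and 13185 at day 6. TFAP2A made up 80.6% and 80.9% of it on the BMP4 arrays of day 2, and ISL1 56.9% at day 6. Of 3 amnion markers detected in E8 or with BMP4, 2 were higher with BMP4 and 1 lower, beside 2.68% and 2.51% of all genes. TFAP2A was undetected in E8 and entered only through BMP4. The lower one was GABRP. Its log2 level was 8.08 in E8, 6.21 with BMP4, 5.94 with BMP4 and pyruvate at day 2 and 9.08 at day 6. Of 7 markers of lateral and cardiac mesoderm, 0 to 2 were detected at day 2 (summed signal 74.0 to 1102) and 5 at day 6 (17244, of which HAND1 was 92.5%). Of 5 markers of definitive endoderm 0 to 2 were detected at day 2 (73.0 to 723) and 4 at day 6 (3526, of which CER1 was 42.2%). Of 5 markers of the primitive streak 0 or 1 were detected without BMP4 (summed signal 109 to 110), 3 with BMP4 (2799), and 4 with BMP4 and pyruvate at day 2 (9236) and at day 6 (10203), with EOMES at 69.9% and 84.3% of those 2 sums. Between these days TBXT was 4.86-fold and MIXL1 2.06-fold lower, and EOMES differed by 0.41. Of 6 markers of mesothelium, an epithelium that forms from mesoderm, 0 were detected at day 2 and 2 at day 6, ALDH1A2 and LRRN4, while WT1, MSLN, UPK3B and TBX18 were not. Their summed signal was 84.8 to 113 at day 2 and 1366 at day 6, of which LRRN4 was 88.9%. Of 11 trophoblast markers 1 or 2 were detected on each array, with a summed signal of 254 to 774, and CGA, CGB5, ERVW-1 and CYP19A1 on none. HLA-G made up 45.1% to 61.6% of that signal. Of 4 markers of surface ectoderm, GRHL3 alone was detected, on the 3 arrays with BMP4. Of 5 neuroectoderm markers 2 or 3 were detected at day 2 and 0 at day 6, and their summed signal was 757 with BMP4 and pyruvate at day 2 and 62.4 at day 6. Of 5 markers of hepatic or yolk sac endoderm 0 or 1 were detected at day 2 and 2 at day 6 (summed signal 77.5 to 99.1, then 351, of which AFP was 46.8%). Of 6 markers of endothelium 2 or 3 were detected on each array (363 to 1157 at day 2, then 2572). KDR made up 58.9% to 70.5% of that signal, and PECAM1, CDH5 and TIE1 were undetected on all 5 arrays. The part of any of these cell types in the keratin levels was not tested.

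Over the 5 arrays, the genes nearest to each keratin in shape were found by the root mean square distance between log2 profiles, each centred on its mean, among 9193 other genes with a proper symbol detected on all 5. IVNS1ABP, a kelch protein that binds actin, lay nearest to KRT8, at a distance of 0.02, and a further probe of it differed by 0.81 with BMP4 in E8 where KRT8 differed by 0.77. CALD1, an actin-binding protein (0.10), TNFRSF1A, a receptor for tumour necrosis factor (0.11), BCAR1, an adhesion scaffold (0.11), and FSTL1, a secreted glycoprotein (0.12), followed. For CALD1 a further probe differed by -1.70 from day 2 to day 6, so its likeness depends on the probe.

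For KRT19 the nearest genes were ST3GAL1, a sialyltransferase (distance 0.13), THBS1, a matrix glycoprotein (0.18), LTBR, a receptor for lymphotoxin (0.18), FBN2, a fibrillin (0.20), and RASL12, a small GTPase of the RAS family (0.21). The place of ST3GAL1 rests partly on background, since its probe was detected on 4 of the 5 arrays and not with pyruvate. A further, detected probe of it differed by 0.30 for pyruvate against E8, where KRT19 differed by -0.51, and by 0.30 from day 2 to day 6, where KRT19 differed by 1.17. The 2 keratins were not each other's nearest genes. KRT19 was 2562nd in the order of likeness to KRT8, and KRT8 280th in that to KRT19, at a distance of 0.56. These distances describe 5 arrays and carry no test.

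**Figure D4:**
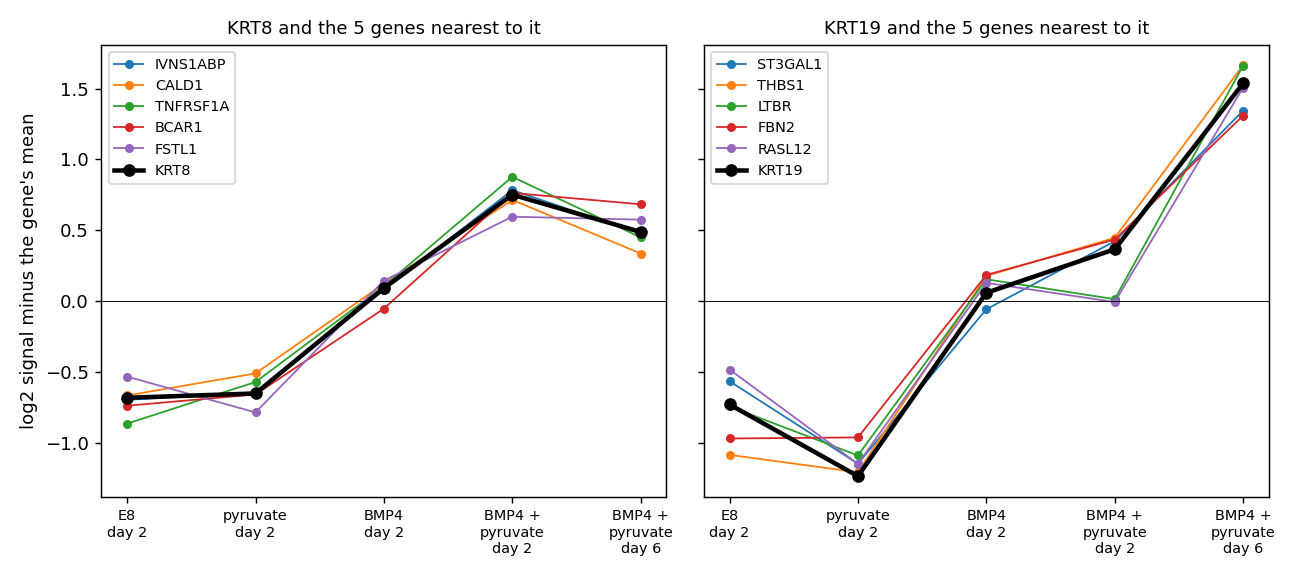
Log2 signal of KRT8 (left) and KRT19 (right), each minus its mean over the 5 arrays, in black, with the 5 genes of the smallest root mean square distance in colour. KRT8 peaked with BMP4 and pyruvate at day 2 and KRT19 at day 6.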

How the data were processed

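Total RNA of the 5 cultures was labelled with biotin and read on Illumina BeadChips, per the labels. The deposited intensity values, headed as non-normalized per the file headers, give each probe's signal on each array with a deposited detection p-value beside it. How the authors' deposited log2 values were made is not given in the sources used here. They served as an alternative only. Each of their columns had a median of 5.58 and nearly the same spread of values, not centred per gene, and kept the probe order of the intensities.

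The intensities were corrected and normalized with neqc of limma 3.58.1 (R 4.3.3), with an offset of 16, which shrinks differences of dim probes. Quantile normalization makes every difference relative to the other genes. Of 47296 probes 30105 had 1 symbol, 8 several and 17183 none in the platform annotation. For genes with several probes the one with the highest mean was used, and a gene counted as detected if any probe was. Where all probes were undetected on the dimmer array, a fold is a bound ("at least") against the higher of the probe's own value and the lowest detected value there. The same bound is given for DST, whose probe was undetected there although another was not. The pipeline was tested on simulated data with known folds.

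The genes named are the 4 keratins, the 5 genes nearest in profile to each, and up to 4 members of each list per comparison by size of difference, with some left out. Outside that rule, CDH1, EPCAM, DSP, OVOL2, GATA3, KLF5, GRHL1, OVOL1, TFAP2A, MARVELD2, SYNM, PRPH, NEFH, ZEB1 and the lamins at day 6 against day 2, and KLF4 for BMP4 against E8, were chosen after their values were seen. Members and lists were chosen with earlier results of these data known.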

Additional observations from a re-analysis of the deposited data

How the results depend on the processing

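Results were recomputed without background correction, with scaling to the 75th percentile, an offset of 50, the authors' log2 values, the arrays normalized without day 6 or without BMP4 plus pyruvate at day 2, the mean of all probes, detection at 0.05, and a 1.5-fold rule. Each log2 difference of KRT8 and KRT19 in the 6 comparisons moved by less than the SD between 2 probes of a gene under each alternative that applied (86 values), and the counts of keratins past 2-fold stayed the same. KRT8 and KRT19 have 1 probe each, with a detection p of 0 on every array. The mean of all probes and detection at 0.05 therefore could not move their differences, and those of the 86 values were fixed in advance. The 1.5-fold rule raised the count for BMP4 against E8 from 0 to 2 and for pyruvate added to BMP4 from 0 to 1, where 12.5% of all genes were higher by that rule. Ranking likeness by Pearson r in place of distance kept 1 of 5 genes for KRT8 and 1 of 5 for KRT19. Among all genes past 2-fold, scaling moved the share that was higher from 44.1% to 63.3% for pyruvate, 51.6% to 67.0% for BMP4, 54.9% to 33.7% for pyruvate in BMP4 and 52.8% to 37.1% for BMP4 in pyruvate. It set the median of all genes at -0.18 for BMP4 in pyruvate and 0.11 for day 6 against day 2, relative to which KRT8 stood at 1.25 and -0.12 and KRT19 at 1.58 and 1.24. In the order pyruvate, BMP4, pyruvate in BMP4, BMP4 in pyruvate, day 6 against day 2 and day 6 against E8, the genes past 2-fold numbered 272, 601, 760, 1380, 3082 and 2969. Without background correction they were 18, 133, 131, 388, 1278 and 1294, and with the 1.5-fold rule 1413, 1735, 2754, 3657, 5656 and 5461. An offset of 50 gave 71, 283, 348 and 804 in the first 4, and the authors' values 133, 398 and 461 in the first 3. The cause was not tested. No paired analysis was possible because each condition has 1 array. Signal over background limits KRT7 and KRT18, which have no measured difference.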

Other observations

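Other intermediate filament genes went in both directions between day 2 and day 6 of BMP4 with pyruvate. Of 11 detected genes 3 were higher and 4 lower (median -0.63), beside 13.5% and 13% of all genes. The neuronal filament genes NEFM (11.9-fold), NEFL (at least 8.85-fold) and INA (4.54-fold) were lower, while PRPH, or peripherin, was at least 2.92-fold higher and NEFH differed by 0.10. SYNM, which joins filaments of muscle, was 3.76-fold higher. Of the lamins, which line the nucleus, LMNB1 was 2.36-fold lower, LMNB2 differed by -0.68, and LMNA differed by 0.35 by one probe and -0.30 by another. With BMP4 in E8, NEFL was 3.86-fold lower and NEFM 2.22-fold higher.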
